A study of Rattus norvegicus with 16 samples.

Results

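The left kidneys of 8 rats are described here, from the 8 arrays of 16 whose titles name a left kidney and mark it as the control. Each rat gave 1 left kidney and each left kidney 1 array. No substance was given to these kidneys, whereas the right kidney of the same animal was given ACTH (adrenocorticotropic hormone, the pituitary hormone that drives the adrenal cortex) in rats 1 and 5, DEX in rats 3 and 7, and saline in rats 2, 4, 6 and 8. DEX is an abbreviation that the labels do not expand. The series text speaks of 2 rats per treatment, while the titles give 4 saline rats, and those titles were used. The labels give no dose, route, duration, sex, age or strain, and whether a hormone given to the right kidney also reached the left one is not known. Each value is a signal intensity, the brightness of a probe set, which is several short DNA probes that read the same transcript or transcripts.

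The kidney filters blood in glomeruli and then recovers most of the filtrate along a tubule built of successive segments. The proximal tubule takes back phosphate, glucose, amino acids and proteins, makes glucose and ammonia, and is rich in mitochondria. The thick ascending limb dilutes the urine, the distal convoluted and connecting tubules adjust calcium and sodium, and the collecting duct sets water and acid excretion. Whole kidney RNA mixes all of these, so fewer cells of a type and less RNA per cell cannot be told apart in any value below.

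Array medians lay between 79.4 and 82.4, and single values between 5.18 and 11690. The arrays fell into the sets rats 1 to 4 and rats 5 to 8, each with 1 ACTH, 1 DEX and 2 saline rats, a division that the labels do not name. Spearman correlations over all probe sets were 0.976 to 0.986 within rats 1 to 4, 0.984 to 0.989 within rats 5 to 8, and 0.950 to 0.969 between the sets. These are correlations across probe sets, which are not independent replicates. The bacterial control DapX read 13.7 to 16.5 in rats 1 to 4 and 131 to 272 in rats 5 to 8, and the labels do not say whether such controls were added. The 3′ over 5′ log2 ratio of the Gapdh control probe sets, a measure of RNA and labelling quality, was 0.54 to 0.93 in rats 1 to 4 and 0.19 to 0.26 in rats 5 to 8. The same ratio for actin overlapped, at 0.49 to 0.91 in rats 1 to 4 and 0.34 to 0.50 in rats 5 to 8. No correlation across rats is given, since the sets of 4 are too small.

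Signal was spread widely over the 8740 probe sets that were not controls. Of their means over the 8 left kidneys, the 25th percentile was 39.5, the 90th 533 and the 99th 2726. Means above 1000 were seen for 437 probe sets, or 5% of them, and means above 3000 for 69. Each of the 4736 named genes was represented by its brightest probe set. Ranks below are of brightness among the 8740 probe sets and are not ranks of transcript copies, because probe sets differ in how strongly they bind.

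Gpx3, the secreted glutathione peroxidase that the kidney supplies to plasma, was the brightest gene. Its signal was 11309, 11113, 11330, 11690, 11172, 10064, 11398 and 11171 in rats 1 to 8 in turn, and it ranked first on every array. The mean was 11156 ± 477 (SD, n = 8). Gpx3 was also among the most even genes, its highest kidney being 1.16 times its lowest on the scale of value + 16. Its second probe set was dimmer and ran between 3612 and 4946.

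The 30 brightest genes had varied functions. Cox8a, a subunit of cytochrome c oxidase, averaged 6746 ± 511, Cox6a1 4218 ± 409.6 and Cox4i1 4186 ± 353 (SD, n = 8). COX3 and COX1, oxidase subunits encoded by mitochondrial DNA, averaged 4318 ± 837 and 3949 ± 1145. Alpl, the tissue-nonspecific alkaline phosphatase of the tubular brush border, averaged 5857 ± 714, and Akr1a1, an aldehyde reductase, 4974 ± 392. Ribosomal protein genes Rps29, Rplp0 and Rpl11 averaged 5202 ± 456, 4463 ± 430 and 3426 ± 437. Antioxidant genes were Sod1 (superoxide dismutase) at 3968 ± 229, Gpx1 at 3837 ± 114 and Mgst3 (a microsomal glutathione transferase) at 3747 ± 509. Glul, glutamine synthetase, averaged 2967 ± 270, and Acy1, which removes acyl groups from amino acids, 3893 ± 374. Mif (a cytokine), Ptms, Tmbim6 and Gnas (a G protein subunit) averaged 3957, 3209, 2974 and 2945, and Hbb, beta globin, 3529. Some of these SDs include a gap between the sets. COX3 read 4818 to 5205 in rats 1 to 4 and 2976 to 3804 in rats 5 to 8. COX1 read 3823 to 5637 and 2743 to 3260. Acy1, Mgst3 and Rpl11 were higher in all of rats 5 to 8. All these SDs are of the brightest probe set, and other probe sets of the same genes could differ. The other Sod1 probe sets read 2219 to 4339 and 1609 to 3261 in rats 1 to 4. In rats 5 to 8 they read 1189 to 1532 and 888 to 1467. Another Cox8a probe set read 7639 to 8916 in rats 1 to 4 and 4603 to 5579 in rats 5 to 8. Glul was higher in all of rats 5 to 8 by its brightest probe set and lower there by its others. The brightest probe sets of these 30 genes, 1 per gene, together held 5.92 to 6.18% of an array's signal. Their other probe sets are not in that share.

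Slc34a1, the sodium phosphate cotransporter of the proximal brush border, ranked 10th. It gave 5176, 5701, 4916, 5578, 5784, 5473, 5430 and 6237 in rats 1 to 8, a mean of 5537 ± 398 (SD, n = 8). By this brightest probe set the 8 kidneys were close together, and the highest was 1.27 times the lowest. Slc34a1 had 5 probe sets, and they did not all order the rats alike. A second read 3588 to 4392 in rats 1 to 4 and 4769 to 5747 in rats 5 to 8, without overlap. Another separated the sets the opposite way, at 3241 to 3339 in rats 1 to 4 and 2176 to 2653 in rats 5 to 8. A further one read 1191 in rat 2 and 2644 to 3739 in the other rats, whereas the brightest read 5701 in rat 2, above 5 of the other 7.

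Kap, a kidney androgen-regulated protein best known from mouse proximal tubule, ranked 29th. Signals of 4276, 5391, 4754 and 5241 in rats 1 to 4 stood above those of 3617, 3005, 3751 and 3475 in rats 5 to 8, with no overlap. The mean was 4189 ± 871 (SD, n = 8). Such separation was common on these arrays. Among 5244 probe sets left after the dimmest 40% were removed, rats 1 to 4 all lay above rats 5 to 8 for 851 (16.2%), and rats 5 to 8 all lay above rats 1 to 4 for 1026 (19.6%).

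The proximal tubule was the brightest of the 17 cell type lists by its median. Of 40 listed genes 34 had a probe set, 33 passed the brightness filter and 20 lay in the top 10% of probe sets. The median member stood at percentile 92.7, against 50 for all probe sets by definition. Members were taken at their brightest probe set, so 50 is a low reference for a gene. By that choice 3187 of 4736 genes passed the filter that left out 40% of probe sets. Fbp1 and Pck1, enzymes of glucose formation, averaged 3741 ± 242 and 3231 ± 475, and Slc3a1, the heavy chain of the cystine transporter, 2980 ± 316. Ggt1, the brush border gamma-glutamyl transferase, averaged 2677 and ranked 91st. Slc22a2 and Slc22a6, the basolateral organic cation and organic anion carriers, averaged 1701 and 1400, and Slc5a2, the main glucose cotransporter, 900. Lrp2 and Cubn, the receptors megalin and cubilin that take up filtered protein, averaged 1207 and 727. The dimmest member was Slc15a1, a peptide transporter better known from the intestine, at 57.3.

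Proximal genes differed in how far they varied among animals. Slc5a2 ran from 785 to 980.5 and Mep1a, a subunit of the brush border protease meprin, from 795 to 1006. By contrast Gatm, the first enzyme of creatine synthesis, gave 817, 944, 850 and 961 in rats 1 to 4 and 246, 288, 320 and 228 in rats 5 to 8. Slco1a1, an organic anion transporter, gave 302 to 389 in rats 1 to 4 and 117 to 168 in rats 5 to 8, and Hao2, a peroxisomal hydroxyacid oxidase, 1248 to 1468 and 720 to 838. Ggt1 was the other way round, at 1926 to 2253 in rats 1 to 4 and 2862 to 3762 in rats 5 to 8. In all, 5 of the 34 measured members were higher in every one of rats 1 to 4 and 3 in every one of rats 5 to 8, against 16.2% and 19.6% of all probe sets past the filter. Lrp2 and Cubn were lowest together in rat 4, at 696 and 505, where the other rats had 1003 to 1580 and 653 to 931. A second Lrp2 probe set was lowest in rat 8 instead, and the third in rat 4. The list score, the mean log2(value + 16) over members, ran from 9.41 to 9.61, a range of 0.19.

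**Figure D1:**
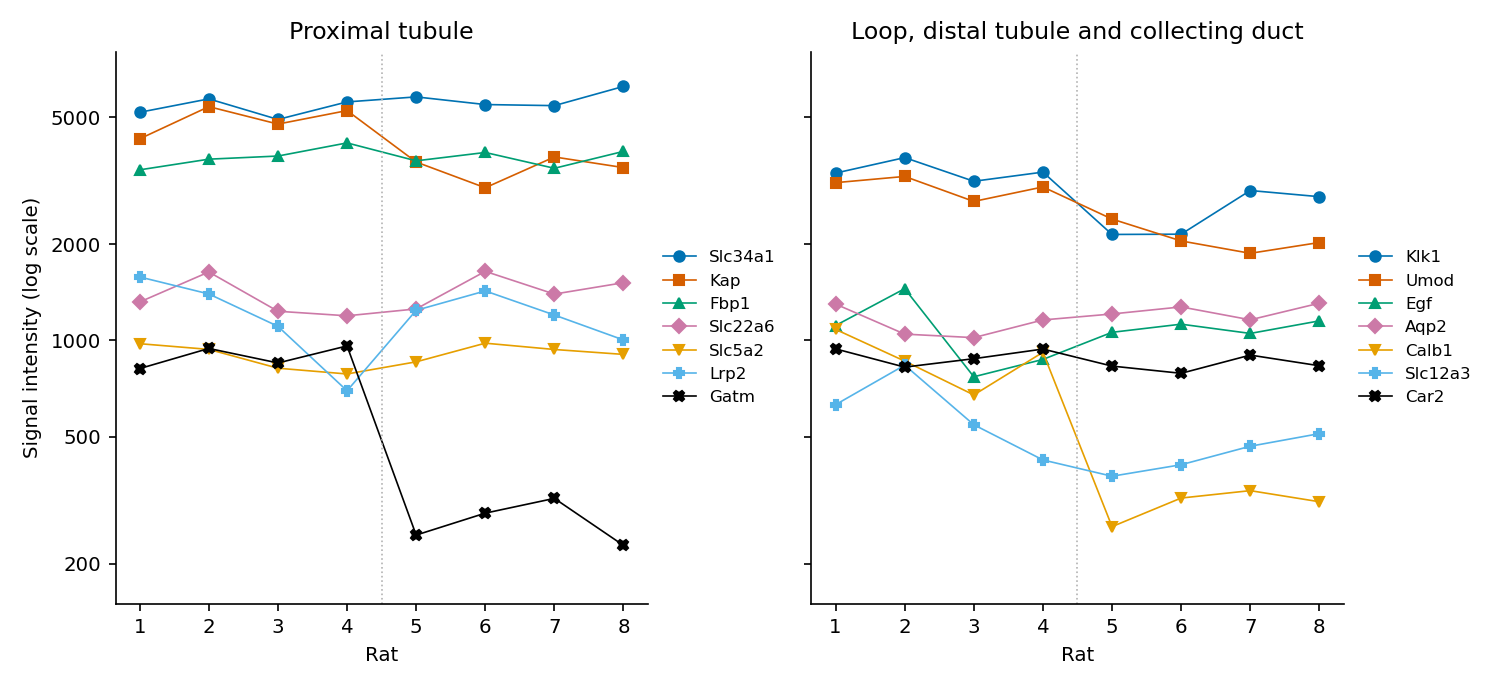
Signal intensity (log axis) of 14 nephron genes in the left kidney of each rat, with proximal tubule genes on the left and genes of the loop, distal tubule and collecting duct on the right. Points are single arrays, lines only join points of a gene, and the dotted line separates rats 1 to 4 from rats 5 to 8. By the brightest probe set of each gene, Slc34a1 stays between 4916 and 6237, whereas Gatm and Calb1 are lower in rats 5 to 8 than in rats 1 to 4.

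In the thick ascending limb, Umod (uromodulin, the most abundant protein of normal urine) was the brightest marker. Its signal was 3117, 3260, 2723 and 3023 in rats 1 to 4 and 2398, 2048, 1874 and 2025 in rats 5 to 8, without overlap. Egf, the precursor of epidermal growth factor, ranked 399th at 1074 ± 202 (SD, n = 8). It gave 1114, 1452, 770, 872, 1060, 1124, 1052 and 1151, so rat 2 was highest, rats 3 and 4 were lowest and the sets overlapped. The dimmer probe set of Egf did separate the sets, at 335 to 620 in rats 1 to 4 and 154 to 199 in rats 5 to 8. Kcnj1, the potassium channel ROMK, averaged 890 ± 154. Slc12a1, the target of loop diuretics, was dim at 113 ± 42.6. Casr, the calcium-sensing receptor, averaged 317 ± 77.2. All 7 of the 12 listed genes with a probe set passed the filter, with a median percentile of 83.8. Umod, Kcnj1 and Slc12a1, 3 of the 7, were higher in all of rats 1 to 4, against 16.2% of probe sets past the filter. Of the 7, 0 were higher in all of rats 5 to 8, against 19.6%. These counts are by the brightest probe set.

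Klk1 and Calb1 mark the distal convoluted and connecting tubules. Klk1, tissue kallikrein, ranked 74th, with 3340, 3734, 3149 and 3364 in rats 1 to 4 and 2146, 2151, 2946 and 2818 in rats 5 to 8. The mean was 2956 ± 571 (SD, n = 8). Its signal in rats 5 and 6 was below that in rats 7 and 8. The other Klk1 probe set had 1113 in rat 7, above 3 of rats 1 to 4, so it did not separate the sets. Kallikreins form a family of near-identical genes, and the share of signal from relatives of Klk1 cannot be told from these values.

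Calb1, the calcium buffer calbindin, showed the widest spread of the 5 marker genes. It gave 1083, 862, 675 and 918 in rats 1 to 4, against 261, 321, 339 and 313 in rats 5 to 8, and averaged 597 ± 328 (SD, n = 8). The lowest of rats 1 to 4 was well above the highest of rats 5 to 8. Within the sets the spread was modest, with a pooled SD of 0.22 on the log2 scale against 0.81 over all rats. Slc12a3, the thiazide-sensitive cotransporter, averaged 524 ± 150.5 and Slc8a1, the sodium calcium exchanger, 219 ± 61.9. Pvalb, parvalbumin, was dim and even, at 43.1 to 47.7. Of 6 members past the filter 3 were higher in all of rats 1 to 4, against 16.2% of all probe sets past the filter. The list score ran from 7.92 to 8.49.

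The score of the collecting duct list ran from 8.09 to 8.27. Of 13 measured members, 5 were higher in all of rats 1 to 4 and 3 in all of rats 5 to 8, against 16.2% and 19.6% of all probe sets past the filter. Aqp2, the vasopressin-regulated water channel, gave 1299, 1047, 1020, 1159, 1210, 1273, 1160 and 1308, a mean of 1185 ± 109.6 (SD, n = 8). Its second probe set separated the sets, at 407 to 583 in rats 1 to 4 and 717 to 862 in rats 5 to 8. Hsd11b2, the enzyme that inactivates corticosterone in these cells, averaged 785 ± 89.6. Aqp3, the basolateral water channel, was higher in rats 1 to 4, at 555 to 762, than in rats 5 to 8, at 383 to 535. The sodium channel subunits Scnn1a, Scnn1b and Scnn1g averaged 280, 275 and 138. Akr1b1 and Slc5a3, genes that raise sorbitol and inositol in the salty medulla, did not go together. Akr1b1 peaked at 1007 in rat 7 and 923 in rat 1, while Slc5a3 was 55.8 to 82.4 in rats 1 to 4 and 102 to 171 in rats 5 to 8. Intercalated cells had 3 measured markers of 11, led by Car2, carbonic anhydrase 2, at 867 ± 56.3.

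Glomerular and vascular markers were of middling brightness. The 7 measured podocyte genes lay between 107 and 298 in mean signal, with a median percentile of 76.4. Of them 1, Vegfa, passed 2-fold between its extreme kidneys, against 12.3% of all probe sets past the filter. Vegfa, the endothelial growth factor, gave 194 to 255 in rats 1 to 4 and 300 to 414 in rats 5 to 8 with its brightest probe set, and 1 of its 3 other probe sets overlapped between the sets. Endothelial genes had a median percentile of 64.9, with Nos3 (endothelial nitric oxide synthase) at 215 ± 22.8 and Pecam1 at 152 ± 19.8. Smooth muscle, mesangial and juxtaglomerular genes had a median percentile of 48.9. Tagln, a smooth muscle actin-binding protein, averaged 445 ± 73.8 and was highest, at 605, in rat 7. Among leukocyte genes, Cd74, the invariant chain of class II molecules, averaged 1337 ± 421, whereas Ptprc, the common leukocyte antigen, averaged 99.3 and Cd8a 47.7.

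Genes of other organs were dimmer than tubular genes by their list medians. Median percentiles were 44.9 for the adrenal gland, 46.7 for pancreas, 40.4 for liver, 36.8 for brain and nerve and 19.9 for skeletal muscle. Members past the filter were 5 of 9 for the adrenal gland, 8 of 13 for pancreas and 7 of 13 for liver. They were 4 of 9 for brain and nerve and 2 of 10 for skeletal muscle. Of the adrenal genes Star, Cyp11b2, Dbh and Chgb were under the filter, at mean signals of 37.9, 42.9, 26.8 and 10.9. Pnmt, Cyp11a1, Cyp17a1 and Th passed it, at 110, 103, 92.3 and 70.1, as did Cyp21a1. Alb, serum albumin, averaged 61.9 and Ckm, muscle creatine kinase, 80.8. The brightest members of these lists were Apoc3, an apolipoprotein, at 354 ± 63.1, and Cela1, a pancreatic-type elastase, at 329 ± 36.2. The insulin genes Ins2 and Ins1 averaged 209 and 128, Ahsg, the liver protein fetuin, 142, and Cyp21a1, the adrenal steroid 21-hydroxylase, 119. The kidney label was matched by bright tubular markers, and the median member of each of these 5 lists was below the 50th percentile.

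**Figure D2:**
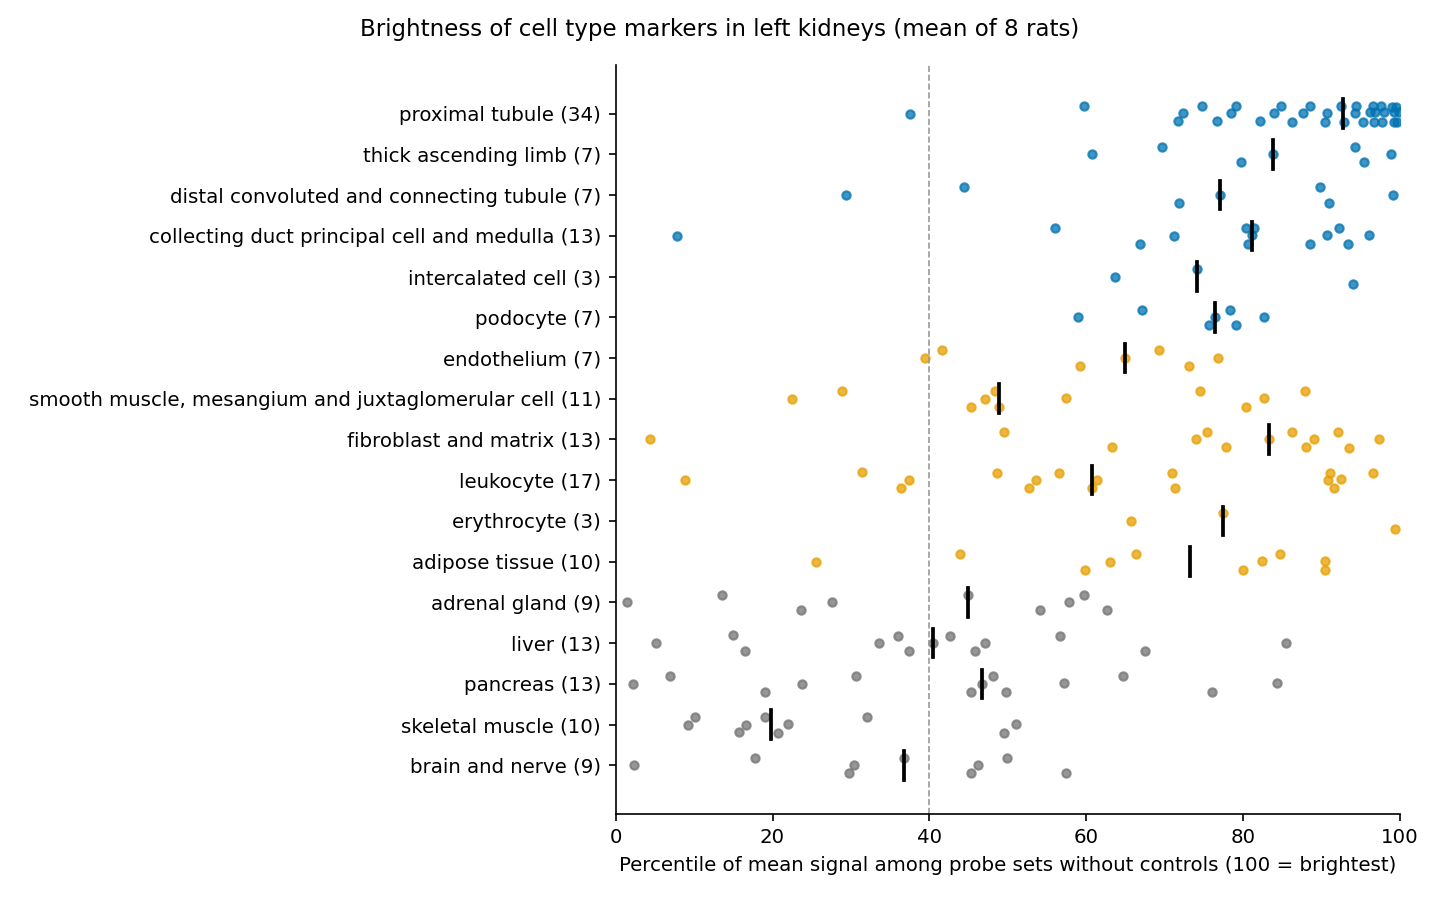
Brightness percentile (100 is brightest) of the measured members of 17 cell type lists, from the mean signal of the 8 left kidneys. Each point is a gene, bars are list medians, numbers in brackets are genes with a probe set, and the dashed line at 40 marks the brightness filter. Blue lists are nephron and podocyte, orange lists vessel, matrix, blood and fat, and grey lists other organs. Medians run from 92.7 for proximal tubule to 19.9 for skeletal muscle.

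Metabolic gene groups were bright. All 9 measured genes of gluconeogenesis and ammonia formation passed the filter, 7 of them in the top 10%, with a median percentile of 95.2. Mdh1, cytosolic malate dehydrogenase, averaged 3812 ± 426, and Got2, the mitochondrial aspartate aminotransferase, 742. Mdh2, the mitochondrial malate dehydrogenase, read 1361 to 1497 in rats 1 to 4 and 732 to 842 in rats 5 to 8 with one probe set. Its second probe set read 859 to 1006 in all rats, so the separation was not shared. Pc, pyruvate carboxylase, was higher in rats 5 to 8, at 739 to 907, than in rats 1 to 4, at 566 to 675.

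Genes of oxidative phosphorylation encoded in the nucleus had a median percentile of 94.7 over 55 measured members, 43 of which were in the top 10%. Cytosolic ribosomal protein genes had a median percentile of 96.6, with 28 of 40 in the top 10%. Cytochrome P450 genes were split between many dim members, with a median percentile of 49.3, and 6 of 49 in the top 10%. Cyp2c23, an arachidonate epoxygenase, averaged 2770 ± 284, Cyp2e1 2434 ± 212 and Cyp2d2 2119 ± 157. Cyp2c11, known as a male-specific form in rat liver, ranged from 152 in rat 3 to 712 in rat 2. Solute carriers had a median percentile of 65.7 over 126 members, and 25 of these were in the top 10%. Atp1b1, the beta subunit of the sodium pump, gave 2302 to 2620 in rats 1 to 4 and 1726 to 1848 in rats 5 to 8. A second Atp1b1 probe set separated the sets the same way, and the third the opposite way, at 280 to 461 in rats 1 to 4 and 485 to 572 in rats 5 to 8. Its regulators Fxyd2 and Fxyd4 averaged 544 ± 49.5 and 468 ± 132.

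Most probe sets varied little between animals. The median SD of log2(value + 16) over the 8 left kidneys was 0.20, and it was 0.14 when pooled within the sets. The median ratio of highest to lowest kidney was 1.49. Of 5244 probe sets, 646 (12.3%) passed 2-fold between their extreme kidneys, 48 passed 4-fold and 13 passed 8-fold. The sets did not overlap for 374 of the 646. Within a set, 162 passed 2-fold among rats 1 to 4 and 87 among rats 5 to 8. Probe sets for a gene often disagreed. Of 929 genes with 2 or more probe sets past the filter, 256 had at least 1 beyond 2-fold and 43 had all of them beyond it.

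Genes that were even by their brightest probe set, among the brightest 10%, came from several functions. Eif3b, a translation initiation factor, ran from 790 to 869, Gpx1 from 3624 to 3972, and Spint2, a protease inhibitor of tubular epithelium, from 2130 to 2357. Other probe sets of these genes were less even. The second bright Gpx1 probe set read 1317 to 1422 in rats 1 to 4 and 594 to 676 in rats 5 to 8, and the second Eif3b probe set 421 to 489 and 509 to 560. Khk, the ketohexokinase that starts fructose breakdown, ran from 1655 to 1849. Hadha, of mitochondrial fatty acid oxidation, ran from 1134 to 1303, and Ass1, argininosuccinate synthase, from 1780 to 2058.

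**Figure D3:**
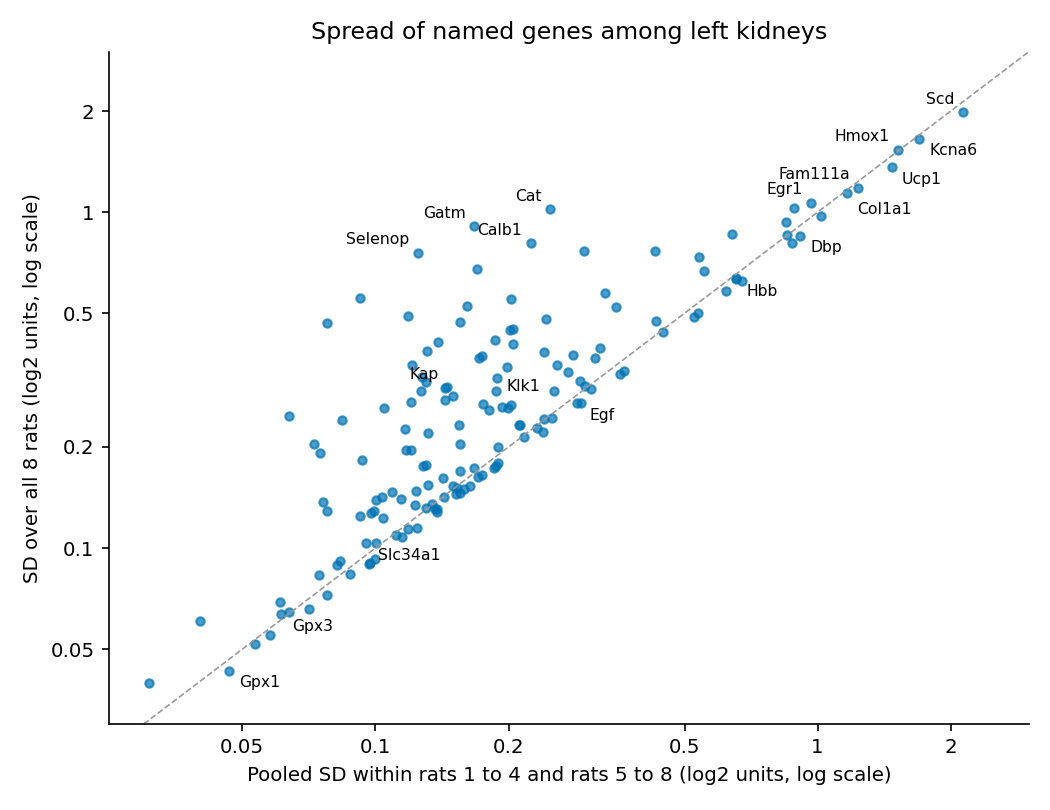
SD of log2(value + 16) over all 8 left kidneys (vertical) against the SD pooled within rats 1 to 4 and rats 5 to 8 (horizontal), both on log axes, for the named genes past the brightness filter. Genes near the dashed line of equality, such as Scd and Dbp, varied among animals of a set. Genes far above it, such as Cat and Selenop, separated the sets.

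Cat, Selenop and Gatm separated the sets. Cat, catalase, gave 711, 650, 835 and 1019 in rats 1 to 4 and 257, 207, 182 and 185 in rats 5 to 8. A second bright probe set of Cat also separated the sets, at 444 to 704 and 287 to 381. Selenop, the selenium carrier of plasma, gave 751 to 966 and 283 to 314. The transcription factor Jun was higher in rats 5 to 8, at 260 to 496, than in rats 1 to 4, at 130 to 165, with its brightest probe set, and its 3 others overlapped between the sets. These differences moved with the control probe sets and Gapdh ratios given above, and the part of those in them was not tested.

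Fat genes formed a group that varied within the sets. Ucp1, the uncoupling protein that defines brown fat, gave 501, 64.7, 253, 69.6, 62.7, 255, 788 and 62.7 in rats 1 to 8. It was high in rats 1, 3, 6 and 7 and near 65 in rats 2, 4, 5 and 8. Its second probe set kept the gap, at 98.9 to 322 in the same 4 rats and 24.2 to 36.4 in the others. Cidea, a lipid droplet protein of brown fat, gave 132, 37.7, 108, 41.9, 42.3, 145, 330 and 46.0, with the same 4 rats high. Fabp4, the fatty acid binding protein of fat cells, gave 157 to 263 in those 4 rats and 54.5 to 72.1 in the others. Cfd, the fat cell protease adipsin, gave 119 to 309 and 58.2 to 76.9.

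Scd, the desaturase that makes monounsaturated fatty acids, had the largest SD of all named genes, 1.98 on the log2 scale. It gave 1190, 61.9, 518, 113, 148, 2347, 68.2 and 45.0. Rats 1, 3 and 6 were high, but rat 7, the highest for Ucp1, was low. Its other probe set was under the filter. Lep, Plin1 and Lpl did not follow the group. Lep, leptin, gave 683 to 839 in rats 1 to 4 and 321 to 440 in rats 5 to 8 with its brightest probe set, while its 2 dimmer ones overlapped between the sets. Plin1, the lipid droplet coat protein of fat cells, was dim at 34.7 to 48.0. Lpl, lipoprotein lipase, read 296 in rat 6, below the 306, 324 and 337 of rats 2, 4 and 5. Of 9 fat genes past the filter 7 exceeded 2-fold between extreme kidneys, against 12.3% of all probe sets past the filter. Lep is counted among the 7 although its range was a gap between the sets. The fat score ran from 6.80 in rat 8 to 8.01 in rat 1.

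Red cell genes followed a similar order. Hbb, beta globin, gave 5282, 2419, 3736, 1478, 2969, 5281, 4454 and 2611. Alas2, the first enzyme of heme synthesis in red cells, gave 331, 191, 229, 157, 150, 380, 209 and 134. Hba-a3, an alpha globin, was highest in rat 7, at 253, and lowest in rat 4, at 54.1. The erythrocyte score was 9.47, 9.53 and 9.34 in rats 1, 6 and 7, 9.0 in rat 3, and 8.04 to 8.55 in the other 4 rats. The 4 rats with high fat scores therefore also had the 4 highest red cell scores, and those 4 were 1 ACTH, 2 DEX and 1 saline rat. How the left kidneys were dissected or bled is not given in the labels, and whether adhering fat or retained blood had a part was not tested.

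**Figure D4:**
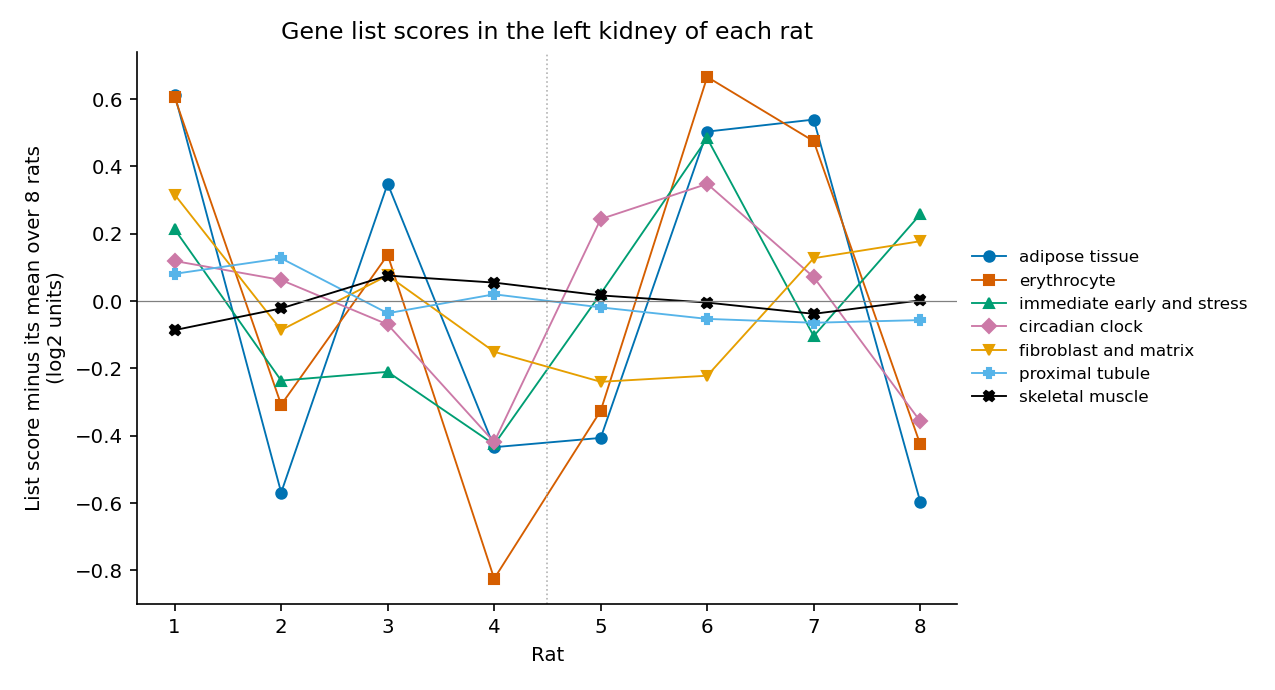
Scores of 7 gene lists in the left kidney of each rat, each minus its mean over the 8 rats (log2 units). Points are single arrays, and the dotted line separates rats 1 to 4 from rats 5 to 8. Fat and red cell scores are high in rats 1, 3, 6 and 7, whereas the proximal tubule and skeletal muscle scores span 0.19 and 0.16.

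Circadian clock genes varied in a further pattern. The clock is a loop in which Bmal1 and its partner Clock switch on Per, Cry, Nr1d1, Nr1d2 and Dbp genes, and Nr1d1 and Nr1d2 in turn repress Bmal1. Dbp, an output transcription factor, gave 441, 873, 296, 158, 428, 832, 480 and 195 in rats 1 to 8. It was highest in rats 2 and 6 and lowest in rats 4 and 8. Its second probe set placed the same pairs of rats at the extremes, with 312 and 281 at the top and 48.4 and 67.7 at the bottom.

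Bmal1 was ordered the opposite way. Its signals were 101, 47.6, 113, 146, 100, 68.3, 94.2 and 160, lowest in rats 2 and 6 and highest in rats 4 and 8. Nr1d1, which encodes the repressor Rev-erb alpha, gave 328, 286, 320, 142, 281, 312, 274 and 100. Rats 4 and 8 were again the lowest, and the other 6 were close together. Nr1d2, its paralog, was lowest in the same rats, at 58.8 in rat 4 and 29.7 in rat 8, and highest, at 177, in rat 2. Per2 was dim, at 41.7 to 91.1, with rat 3 lowest. Of the 8 measured clock genes 5 exceeded 2-fold between extreme kidneys, against 12.3% of all probe sets past the filter.

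All 4 of the rats at the extremes, 2 and 6 against 4 and 8, belonged to the saline group. The time at which the kidneys were taken is not given in the labels. Left kidneys of the hormone rats 1, 3, 5 and 7 lay between these extremes for Dbp and Bmal1. Tef, Bhlhe40 and Hlf did not share this order. Hlf varied little, from 209 in rat 1 to 285 in rat 8, with 279 in rat 3. Tef gave 178 to 220 in rats 1 to 4 and 236 to 341 in rats 5 to 8, and Bhlhe40 was highest, at 334, in rat 6.

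**Figure D5:**
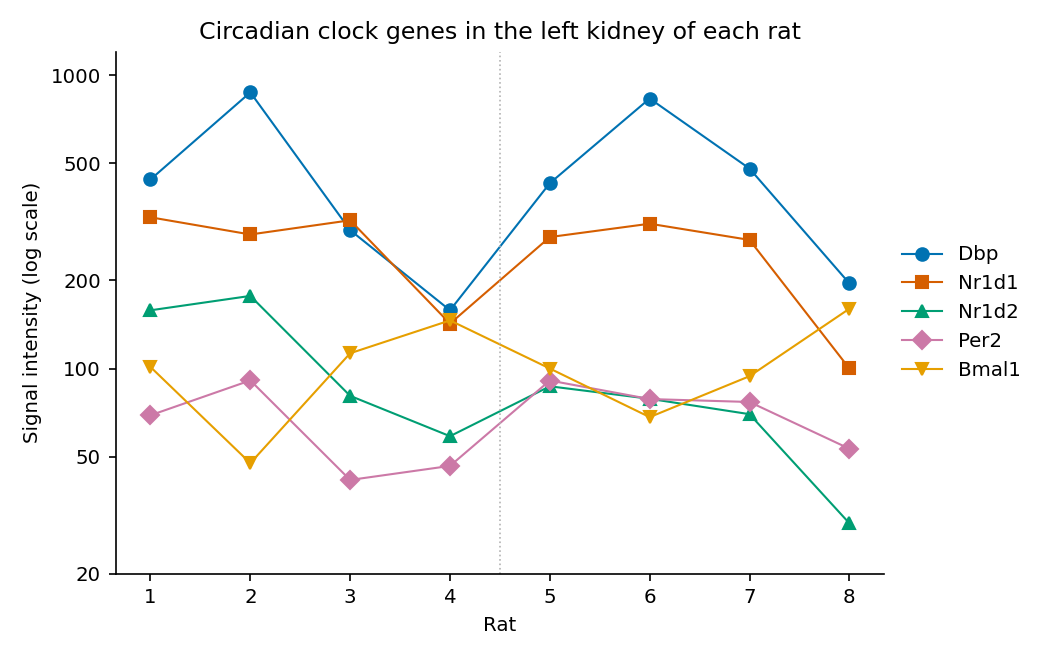
Signal intensity (log axis) of 5 circadian clock genes in the left kidney of each rat. Points are single arrays, lines only join points of a gene, and the dotted line separates rats 1 to 4 from rats 5 to 8. Dbp is highest and Bmal1 lowest in rats 2 and 6, and the reverse holds in rats 4 and 8.

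The promoters of 3 of these genes are shown, chosen because their windows hold a match to a short motif through which the loop is known to act. Sequences are from RefSeq (build GRCr8) and hold the 250 bases before the start site, read 5′ to 3′ on the gene's strand. The search used CACGTG (the E-box bound by Clock and Bmal1), CACGTT (a related E-box), TTATGNAA (the D-box bound by Dbp) and AGGTCA (the core bound by Nr1d1 and Nr1d2), on both strands. Capitals mark matches. The windows are chr1:176766078-176766327 on the plus strand for Bmal1, chr10:84229455-84229704 on the minus strand for Nr1d1 and chr9:99496994-99497243 on the minus strand for Per2.
Bmal1: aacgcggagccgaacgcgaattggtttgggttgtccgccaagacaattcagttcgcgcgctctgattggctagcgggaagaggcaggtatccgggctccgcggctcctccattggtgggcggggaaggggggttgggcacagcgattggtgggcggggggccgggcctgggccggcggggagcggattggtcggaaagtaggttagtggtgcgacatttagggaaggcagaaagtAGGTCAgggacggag
Nr1d1: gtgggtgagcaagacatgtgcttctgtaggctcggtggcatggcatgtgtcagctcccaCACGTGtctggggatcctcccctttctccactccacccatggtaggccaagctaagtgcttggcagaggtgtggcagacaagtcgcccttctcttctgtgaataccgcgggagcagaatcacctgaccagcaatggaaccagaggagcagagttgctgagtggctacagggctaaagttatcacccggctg
Per2: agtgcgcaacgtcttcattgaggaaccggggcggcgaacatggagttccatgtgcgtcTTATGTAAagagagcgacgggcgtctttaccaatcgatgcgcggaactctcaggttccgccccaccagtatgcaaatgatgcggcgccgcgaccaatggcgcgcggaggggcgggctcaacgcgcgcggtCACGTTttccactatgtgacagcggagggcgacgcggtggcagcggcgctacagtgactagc
Bmal1 held AGGTCA from base -15 to base -10 relative to the start site, Nr1d1 held CACGTG from -191 to -186, and Per2 held CACGTT from -62 to -57 and TTATGNAA from -192 to -185. Of 13 listed clock genes 11 had an entry, and 7 of these held at least 1 match. Those not shown were Nr1d2 with AGGTCA, Cry2 with CACGTT, and Tef and Bhlhe40 with CACGTG. Tef and Bhlhe40 thus held the motif of Nr1d1 without sharing the order of Dbp. The share of promoters with any of these motifs was not counted. Dbp, Per1, Per3 and Clock held none, and the other window of Nr1d1 held CACGTT and not CACGTG. Among all 33469 promoters of the same length, 5.59% held CACGTG, 4.07% CACGTT, 3.28% TTATGNAA and 14.1% AGGTCA. A match describes these letters and is not a binding site shown here.

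Immediate early genes, which respond within minutes to stimulation or stress, had their highest list score in rat 6. Egr1, a zinc finger transcription factor, gave 706, 331, 242, 181, 406, 1845, 343 and 915. Its other 3 probe sets were dimmer and also highest in rat 6. Zfp36, which destabilises cytokine messages, gave 301 to 487 in rats 1 to 4 and 466 to 925 in rats 5 to 8, with rat 6 highest. Its other probe set was highest in rat 8, at 385, with 337 in rat 6. Dusp1, a phosphatase that switches off MAP kinases, gave 456 in rat 6 and 208 to 300 in the other rats. A second Dusp1 probe set was also highest in rat 6, at 525. The dimmest was highest in rat 2 instead, at 102, with 82.9 in rat 6. Fos varied less, from 227 to 303. Of 10 members past the filter 7 exceeded 2-fold, against 12.3% of all probe sets past the filter.

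Hmox1, heme oxygenase 1, stood apart in rat 1. It gave 2835 in that rat and 106 to 143 in the other 7. The second probe set showed the same, at 817 in rat 1 and 50.6 to 75.1 elsewhere. Rat 1 was an ACTH rat, and the left kidney of the other ACTH rat, number 5, read 110 and 62.3. The score of the 9 measured genes known to be raised in damaged tubules was 7.48 in rat 1 and 7.37 to 7.77 in the other rats. Of these genes Clu gave 474 in rat 1, the lowest of the 8 kidneys, and Anxa2 gave 472, the highest of rats 1 to 4.

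Rat 8 was set apart by Kcna6, Kcna5, Hoxc4 and a probe set of Apob. Kcna6, a voltage-gated potassium channel gene, gave 1796 in rat 8 and 45.4 to 70.1 elsewhere. Its other probe set did not share this, at 25.5 to 61.2 in all rats. Kcna5, a related channel, gave 672 in rat 8 and 106 to 134 elsewhere, and the homeobox gene Hoxc4 gave 932 against 90.2 to 171. Col1a1, a chain of type I collagen, was also highest in rat 8 by its brightest probe set, at 1429, where the other rats had 117 to 759. The other 3 Col1a1 probe sets were highest in rat 7 or rat 1 instead. Col1a2, the partner chain, gave 347 in rat 8 and was highest, at 449, in rat 1.

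Low singletons were seen as well. One Mep1a probe set read 40.1 in rat 7 and 446 to 692 in the other rats, while the brightest Mep1a probe set read 900 in rat 7, amid the rest. In rat 2, 8 probe sets lay over 2-fold below all other rats, among them 1 for Slc34a1, 1 for Dusp6 (37.0 against 114 to 221) and 1 for Ephx2 (28.2 against 80.1 to 178). Fam111a, a protease gene, fell into 2 levels that cut across the sets, at 16.8 to 19.8 in rats 1, 5 and 6 and 128 to 172 in rats 2, 3, 4, 7 and 8. Singletons and genes of this paragraph were picked for their values, so no p-value is given for them.

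Whether left kidneys varied with what the right kidney had been given was tested with limma, with a term for the set of rats. The 2 left kidneys of ACTH rats and the 2 of DEX rats were each compared with the 4 of saline rats. Both comparisons share the saline kidneys and are not set against each other. Of 5244 probe sets, 1 (0.0191%) passed an adjusted p of 0.05 for ACTH rats and 0 (0.0%) for DEX rats. At an unadjusted p under 0.05 there were 104 and 166, where 262 are due by chance. Leaving out 1 rat gave 2 calls for ACTH rats without rat 5 or rat 6, and for DEX rats 3 calls without rat 3 and 1 without rat 6.

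The single call was a dim probe set for RT1-Bb, a beta chain of rat class II histocompatibility molecules. It read 201 and 499 in the left kidneys of ACTH rats, against 33.0, 18.3, 41.0 and 44.4 in those of saline rats. It rose by 2.77 ± 0.19 on the log2 scale (SE, limma, adjusted p = 0.000559). DEX rats had 28.3 and 42.8, inside the range of saline rats. All left kidneys of saline and DEX rats were under the brightness filter of 61.4. The probe set therefore passed the filter only through its high values in ACTH rats. The 4 other RT1-Bb probe sets did not share the change. The brightest read 389 and 976 in ACTH rats, against 315, 416, 835 and 497 in saline rats. Class II genes differ between rat strains and animals, and the strain is not given in the labels. Without a term for the set of rats, the call was lost (adjusted p = 0.124).

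Genes that missed the threshold with the smallest p are given as values only. In ACTH rats Apom, an apolipoprotein of the tubule and liver, read 1650 and 2210, against 2255 to 3197 in saline rats (log2 difference -0.45 ± 0.10, limma adjusted p = 1.00). In DEX rats Upb1, an enzyme of pyrimidine breakdown, read 1307 and 1781, against 969 to 1071 in saline rats (0.57 ± 0.13, limma adjusted p = 0.999). Jund, a partner of Jun, read 202 and 237 in DEX rats and 52.3 to 158 in saline rats, a difference of 1.26 ± 0.30. Acsm3, a fatty acid activating enzyme, read 98.0 and 72.8 in DEX rats and 96.2 to 542 in saline rats. Enpep read 113 and 237 in DEX rats, overlapping saline rats at 152 to 346. Dnase1 read 905 and 1553 in ACTH rats, overlapping saline rats at 1374 to 2822. Ptgds read 216 and 280 in ACTH rats, overlapping saline rats at 254 to 451. Fabp5, a fatty acid binding protein, read 389 and 392 in DEX rats and 218 to 295 in saline rats, and Ppp1cc, a phosphatase subunit, 391 and 314 in DEX rats and 398 to 716 in saline rats.

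Sgk1, Nr3c1 and Hsd11b2, named beforehand as a corticosteroid target, a receptor and an inactivating enzyme, were also below the threshold in left kidneys. Sgk1, a kinase induced by corticosteroids, read 478 and 323 in ACTH rats, 249 and 519 in DEX rats, and 707, 581, 435 and 630 in saline rats. The log2 differences from saline rats were -0.54 ± 0.29 for ACTH and -0.66 ± 0.29 for DEX (SE), and neither passed the adjusted threshold in limma. Single rats set these values, since the ACTH difference was -0.20 without rat 5 and -0.89 without rat 1, and the DEX difference 0.031 without rat 3 and -1.35 without rat 7. Nr3c1, the glucocorticoid receptor, differed by -0.06 ± 0.19 for ACTH and 0.13 ± 0.19 for DEX, and Hsd11b2 by -0.10 ± 0.14 and -0.16 ± 0.14. With 2 hormone kidneys per comparison, a gene that missed the threshold is not shown to be equal.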

How the data were processed

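Whole kidney RNA (5 to 8 µg, per the labels) was hybridised to 1-colour arrays. Per probe set the authors deposited 1 linear signal intensity. How those intensities were computed and normalized is not given in the sources used here, and no further normalization was applied. Precision is limited by the number of arrays. The 8 right kidney arrays entered no step.

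The analysis scale was log2(value + 16). After removal of 59 control probe sets, the 40% with the lowest mean over left kidneys (under 61.4) were left out of tests and spread counts. A single symbol was annotated for 7006 probe sets, while 308 had several and 1426 had no symbol, and RefSeq gene identifiers matched 6985. Each gene was represented by its brightest probe set.

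Limma (version 3.58.1, R 4.3.3, two-sided, intensity trend, Benjamini-Hochberg adjustment, threshold 0.05) was fitted with a term for the set of rats, leaving 4 residual degrees of freedom, and was tested on simulated data. The p-values measure the spread between rats, with 1 array each.

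Named genes were 5 markers, the 30 brightest, the 20 with the highest SD and 10 within sets, the 10 most even of the brightest 10%, per list the 4 brightest and 2 most variable, the limma calls or, with none in a direction, the 3 of smallest p, and Sgk1, Nr3c1 and Hsd11b2. Other list members and single-rat genes were chosen after their values were seen. Members, lists and rules were chosen with earlier results of these data known. Alternatives were the pseudocount, normalization, filter, probe set rule, each rat left out and no term for the set.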

Additional observations from a re-analysis of the deposited data

Results flagged for a closer look

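Among 171 probe sets of named genes and 28 list scores, 12 had 1 left kidney far from the other 7 (Dixon's test at 95%, the gap to the nearest kidney over the whole range). Chance flags about 1 in 20, and many of these genes were named for their spread, so this is a screen that supports no result. High single values were Hmox1 in rat 1 (2835, others 106 to 143), Kcna6 in rat 8 (1796, others 45.4 to 70.1), Kcna5 in rat 8 (672, others 106 to 134), Hoxc4 in rat 8 (932, others 90.2 to 171), Dusp1 in rat 6 (456, others 208 to 300) and Mbp, a myelin gene, in rat 2 (108, others 58.4 to 76.1). Low single values were Gpx3 in rat 6 (10064, others 11113 to 11690), Mdh1 in rat 3 (2863, others 3759 to 4330) and Myl1, a muscle myosin light chain, in rat 1 (32.0, others 44.8 to 57.5). Among scores, the leukocyte list was lowest in rat 8 (7.30, others 7.42 to 7.52). The tubular injury list was highest in rat 7 (7.77, others 7.37 to 7.54), where Clu, a chaperone raised in damaged tubules, read 1045. The list of corticosteroid receptors, metabolism and targets was lowest in rat 5 (8.04, others 8.21 to 8.33). Of the 12, 4 were in rat 8. Their causes were not tested.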

How the results depend on the processing

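No paired analysis was possible because only left kidneys, 1 per rat, were compared, so a rat's number pairs none of them. The 1 call for ACTH rats became 0 with no term for the set of rats. Leaving out each rat in turn gave 1 to 2 calls for ACTH rats, with 2 without rat 5 (both Hmox1 probe sets, since rat 1 is then the only ACTH rat) and 2 without rat 6 (RT1-Bb and Fam111a). It gave 0 to 3 calls for DEX rats, with 3 without rat 3 (1 for Mep1a and 2 without a symbol) and 1 without rat 6 (Acsm3). Where 1 hormone rat is left, it is assumed to vary like the other groups. RT1-Bb kept its direction in every refit that tested it (without rat 5 it fell under the brightness filter), at 1.98 with pseudocount 64 and 3.25 with pseudocount 1. Probe sets past 2-fold were 646, with 340 under pseudocount 64, 866 under pseudocount 1 and 549 to 614 with 1 rat left out. The median percentile of the proximal tubule list was 92.7, with 91.2 for the mean of all probe sets of a gene and 92.5 to 92.8 with 1 rat left out. With that mean, 17 of 28 list medians moved by more than their SD over arrays, among them endothelium (45.0), podocyte (67.1), liver (27.1), pancreas (36.8) and circadian clock (61.9). An alternative chosen after seeing the data, requiring all probe sets of a gene to pass 2-fold, left 43 genes of 256. Of single genes, the SD changed by more than a fixed ratio for 14 with pseudocount 64 and 2 with quantile normalization. With 1 rat left out, this happened in 25 cases, counted over genes and rats. No called direction was reversed. Of differences that missed the threshold, Sgk1 for DEX rats (-0.66) was -1.35 to 0.031 with 1 rat left out, Nr3c1 for ACTH rats (-0.06) -0.22 to 0.016 and Nr3c1 for DEX rats (0.13) -0.14 to 0.40, so their signs are not settled. Sgk1 for ACTH rats was -0.89 to -0.20. Dim genes near background are limited by signal.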
